A study of Mus musculus with 8 samples.

Results

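The genes described here are 10 genes that respond to glucocorticoid hormone or to metal: Nr3c1, Fkbp5, Tsc22d3, Klf9, Zbtb16, Sgk1, Dusp1, Pdk4, Mt1 and Mt2. They were taken by name, as all non-control probes whose gene name on the array is one of the 10, out of 37074 gene names on the array and 25830 genes tested. The 10 genes have 19 probes, and 17 of these passed the filter on dim probes, with at least 1 probe for every gene. RNA was measured in whole lungs of 8 male bone marrow chimeras, 22 weeks old, taken 72 hours after diphtheria toxin, with 1 one-colour Agilent array for each mouse. Donors and recipients were wild-type or LysM-DTR mice; in the latter the lysozyme M promoter drives the receptor for the toxin. Both sides were LysM-DTR in LL, WL mice were LysM-DTR recipients of wild-type marrow, LW mice were wild-type recipients of LysM-DTR marrow, and both sides were wild type in WW. Each group had 2 mice, and every mouse, WW included, had been given marrow and toxin, so no group stands for an untreated lung. The promoter is active in macrophages, monocytes and neutrophils and also in alveolar type 2 cells, so a LysM-DTR recipient carries the receptor in lung epithelium as well as in any myeloid cells it kept. How far the marrow had replaced the recipient's own myeloid cells is not given in the sources used here. The title of the study names repair growth factors and injury biomarkers as its subject.

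Glucocorticoids (corticosterone in the mouse) enter the cell and bind the glucocorticoid receptor, which Nr3c1 encodes. The bound receptor moves to the nucleus and acts on DNA at pairs of short sites that face each other. Several of the genes it induces damp the response or inflammation: Fkbp5 lowers the receptor's affinity for hormone, Tsc22d3 (GILZ) restrains NF-kappa-B and AP-1, and Dusp1 removes phosphate from MAP kinases. Klf9 and Zbtb16 encode transcription factors, Sgk1 a kinase that acts on ion channels, and Pdk4 a kinase that holds back pyruvate dehydrogenase in fasting. Mt1 and Mt2 encode metallothioneins, small cysteine-rich proteins that bind zinc and copper. Metallothionein genes respond to zinc through the factor MTF1 at metal response elements, and also to glucocorticoids and to interleukin 6 acting through STAT3. Lung is a main target of glucocorticoids, which there also drive the maturation of surfactant-producing cells.

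Sequences upstream of the start sites are shown because the group joins genes with known receptor sites to genes with known metal sites. RefSeq windows (GRCm38.p6) of the 250 bases before a start were found for 8 of the 10 genes; Zbtb16 and Nr3c1 are named only. The windows were searched on both strands for the metal response core TGCACNC or TGCGCNC, for the glucocorticoid receptor hexamer AGAACA, for that hexamer and its reverse complement 3 bases apart, and for a STAT core of TTCC and GGAA 1 base apart. Each hexamer of a pair also counts as a hexamer. The Mt2 window, chr8:94172368-94172617 on the plus strand, ends at the base before the start and holds 3 metal response cores, in capitals, of which the last is on the minus strand.

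Mt2: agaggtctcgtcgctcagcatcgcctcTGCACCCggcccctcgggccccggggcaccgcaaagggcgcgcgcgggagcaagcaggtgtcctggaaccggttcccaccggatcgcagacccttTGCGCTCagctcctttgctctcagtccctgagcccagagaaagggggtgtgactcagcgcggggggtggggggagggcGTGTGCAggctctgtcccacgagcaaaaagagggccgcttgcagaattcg

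At least 3 cores were present in 1.26% of the 32851 windows of that length, and at least 1 in 21.4%. The Mt1 window held 1 core. Bases outside the windows were not searched, so these counts do not give the number of metal sites of either gene. Only 30 bases around the Mt1 core are shown, chr8:94179055-94179084 on the plus strand, because an annotated Mt1 transcript begins within the window. The annotated starts of Mt1 and Mt2 lie 6265 bases apart.

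Mt1: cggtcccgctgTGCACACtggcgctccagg

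A hexamer pair was found in 1 of the 6 Sgk1 windows, the only pair in the windows of the 8 genes, and in 3 of all 32851 windows (0.00913%). It is shown with its flanks, chr10:21993694-21993723 on the plus strand, in capitals. A single hexamer, which 16.1% of all windows hold, was found in 1 of the 3 Tsc22d3 windows and is shown from chrX:140600690-140600719 on the minus strand.

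Sgk1: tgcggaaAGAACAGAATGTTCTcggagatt

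Tsc22d3: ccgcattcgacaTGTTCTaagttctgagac

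Fkbp5, Dusp1, Klf9 and Pdk4 had no match to these letters in their windows, and the STAT core, held by 0.913% of all windows, was in none of the windows of the 8 genes. These matches are descriptions of sequence and say nothing of binding in these lungs.

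Levels below are log2 of the processed spot intensity minus the 75th percentile of that array, so a level of 0 is the brightness of that percentile, and levels of different probes cannot be compared. The lung marker Sftpc read between 7.41 and 9.81 over the 8 arrays, Ager between 7.90 and 8.63 and Scgb1a1 between 8.99 and 9.68. Alb, the albumin gene of liver, read 3.84 in mouse LW2 and between -5.80 and -1.43 in the other mice. The WL mice stood apart from each other. Over all genes the root mean square difference within the WL pair was 0.87 on the log2 scale, against 0.43, 0.41 and 0.38 within LL, LW and WW, and WL1 lay 0.37 from the WW mean where WL2 lay 0.91. The groups share 1 estimate of the spread, so the WL pair enters the error of every comparison: for LL against WW the standard error was smaller without the WL arrays for 93.4% of all genes and for 8 of the 10, all but Zbtb16 and Dusp1. Values without these arrays are given beside the LL against WW and LL against LW differences whose call they change. All arrays were on 1 slide, with LL and WL in one column and LW and WW in the other, so recipient genotype and slide column cannot be told apart. In whole lung, more cells of a type and more RNA per cell cannot be told apart either.

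The metallothioneins had the widest range of the 10 genes together with Fkbp5. Mt2 (probe at chr8:96697371-96697430, mm9) read 7.67 and 8.57 in LL, 4.63 and 8.46 in WL, 4.41 and 4.71 in LW, and 4.76 and 4.72 in WW. The 2 LL mice and mouse WL2 were high, the other 5 mice lay within a narrow band, and LL did not overlap LW or WW. Mt1 (chr8:96704165-96704224, mm9) read 7.78 and 8.61 in LL, 5.61 and 8.45 in WL, 5.45 and 5.60 in LW, and 5.62 and 5.69 in WW. The same 3 mice were high for both genes. A second Mt1 probe, for a predicted transcript, read 1.47 and 1.94 in LL and 2.33 in WL2, and between -2.60 and -2.21 in the other 5 mice. The Mt1 and Mt2 probes share no run of more than 7 bases with each other. They were not searched against the transcript of the other gene, so binding of that transcript was not tested.

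**Figure D1:**
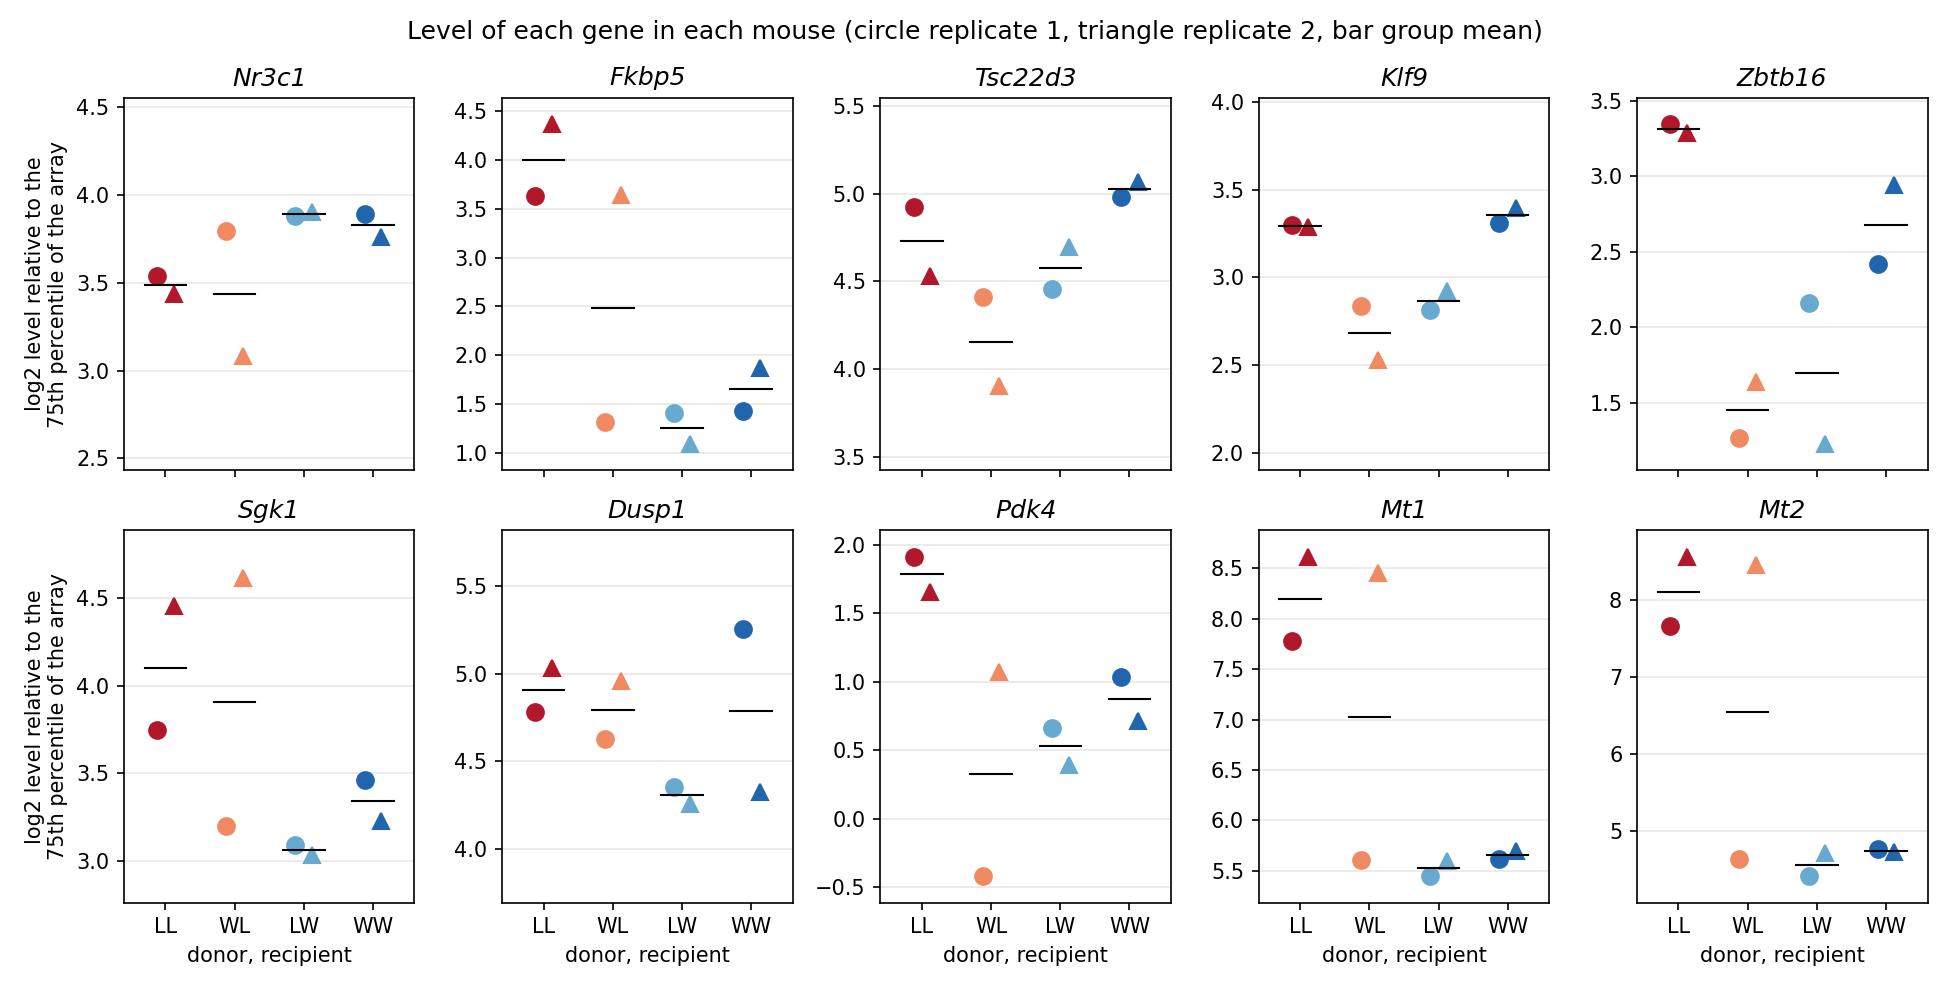
Level of each of the 10 genes in each mouse, as log2 intensity relative to the 75th percentile of the array, for the groups LL, WL, LW and WW. Circles are replicate 1, triangles replicate 2 and black bars the mean of the 2 mice; every axis spans at least 2 log2 units, and Mt1, Mt2 and Fkbp5 are high in both LL mice and in 1 of the 2 WL mice.

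By group mean, Mt2 ran from LL (8.12 ± 0.64, SD, n = 2) over WL (6.55 ± 2.71) and WW (4.74 ± 0.03) to LW (4.56 ± 0.21), and no neighbours in that order differed beyond their error. LL exceeded WW by 3.38 on the log2 scale (standard error, SE, 1.13; 10.4-fold; limma adjusted p = 0.151). Mt1 ran in the same order, and LL exceeded WW by 2.54 (SE 0.85; 5.82-fold; adjusted p = 0.151). These differences kept their size without both WL arrays, and their adjusted p were 0.0034 for Mt2 and 0.0045 for Mt1. WL exceeded WW by 1.81 for Mt2 (adjusted p = 0.486) and by 1.37 for Mt1 (adjusted p = 0.486), and both values rest on mouse WL2: without it they were -0.11 and -0.047, and without WL1 they were 3.72 and 2.79. LW lay 0.18 below WW for Mt2, with a 95% interval from -2.92 to 2.56, and 0.13 below for Mt1.

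Fkbp5, the immunophilin that binds the receptor complex, followed the same mice. It read 3.63 and 4.36 in LL, 1.32 and 3.65 in WL, 1.41 and 1.09 in LW, and 1.43 and 1.87 in WW (chr17:28536060-28536119, mm9). LL exceeded WW by 2.35 (SE 0.72; 5.10-fold; adjusted p = 0.132) and LW by 2.75 (adjusted p = 0.100). Without both WL arrays these had adjusted p of 0.0061 and 0.0044. WL exceeded WW by 0.83, which was -0.33 without WL2 and 2.0 without WL1. A second Fkbp5 probe read 0.97 and 1.46 in LL, -1.30 and 1.15 in WL, -1.27 and -0.92 in LW, and -0.71 and 0.34 in WW, so it too was high in both LL mice and WL2. Another Fkbp5 probe, well above background on 6 arrays, put LL above WW by 1.40 (log2).

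Sgk1, whose upstream window holds the hexamer pair shown above, was highest in mouse WL2. It read 3.75 and 4.45 in LL, 3.20 and 4.61 in WL, 3.09 and 3.04 in LW, and 3.46 and 3.23 in WW (chr10:21719390-21719449, mm9). LL lay above LW and WW without overlap, by 1.04 and 0.76 on the log2 scale (adjusted p = 0.221 and 0.343). With both WL arrays left out, the difference from LW had an adjusted p of 0.0318 and that from WW one of 0.0736. The other Sgk1 probe was not well above background on any array.

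Klf9, Zbtb16 and Tsc22d3 did not single out WL2 upward: in these genes both WL mice and both LW mice lay below both WW mice. Klf9 (chr19:23240410-23240469, mm9) read 3.30 and 3.29 in LL, 2.84 and 2.53 in WL, 2.81 and 2.92 in LW, and 3.31 and 3.40 in WW. LL lay just under WW, and the mixed chimeras lay lower than both. WL was 0.67 below WW (SE 0.16; adjusted p = 0.486) and LW 0.49 below (SE 0.16; adjusted p = 1). LL minus WW was -0.06, with a 95% interval from -0.44 to 0.32. A second Klf9 probe read 2.62 and 2.77 in LL, 2.33 and 2.22 in WL, 2.43 and 2.44 in LW, and 2.75 and 2.88 in WW, in the same order of groups.

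Zbtb16 had the largest moderated F of the 10 genes. It read 3.34 and 3.29 in LL, 1.27 and 1.64 in WL, 2.16 and 1.23 in LW, and 2.42 and 2.94 in WW (chr9:48462419-48462478, mm9). Both LL mice lay above all others and both WW mice above WL and LW. LL exceeded WL by 1.86 (SE 0.34; 3.64-fold; adjusted p = 0.0660) and LW by 1.62 (SE 0.34; 3.07-fold; adjusted p = 0.0662), and without both WL arrays the second had an adjusted p of 0.0235 at an SE of 0.35, so its error was no smaller. The first difference was 2.05 without WL2 and 1.68 without WL1. WL was 1.23 below WW (adjusted p = 0.486) and LW 0.98 below (adjusted p = 1). On a second probe LL read -0.75 and -0.95, WL -2.95 and -2.64, LW -2.38 and -3.12, and WW -2.18 and -1.90.

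Tsc22d3 read 4.92 and 4.53 in LL, 4.41 and 3.90 in WL, 4.46 and 4.69 in LW, and 4.98 and 5.07 in WW (chrX:137074094-137074153, mm9). Here WW was highest, and mouse LL2 lay below LW2. WL was 0.87 below WW (SE 0.23; adjusted p = 0.486), LW 0.45 below and LL 0.30 below (adjusted p = 0.435). A second Tsc22d3 probe put LL 0.13 above WW, with 3.32 and 3.18 in LL against 3.01 and 3.24 in WW, so the probes differ in the sign of that small difference. A further one was not well above background on any array.

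Pdk4 shared features of both patterns. It read 1.91 and 1.66 in LL, -0.42 and 1.07 in WL, 0.67 and 0.39 in LW, and 1.04 and 0.72 in WW (chr6:5433441-5433500, mm9). LL lay above every other mouse, and WL1 was the lowest of the 8. LL exceeded WW by 0.91 (SE 0.46; 1.87-fold; adjusted p = 0.266), with an adjusted p of 0.0181 without both WL arrays, and it exceeded WL by 1.46 (adjusted p = 0.224). The latter value rests on which WL mouse is used: it was 2.20 without WL2 and 0.71 without WL1.

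Dusp1 and Nr3c1 had the smallest moderated F of the 10 genes. Dusp1 (chr17:26642624-26642683, mm9) read 4.78 and 5.03 in LL, 4.63 and 4.96 in WL, 4.35 and 4.26 in LW, and 5.25 and 4.32 in WW. The WW mice spanned most of the range, and LL minus WW was 0.12 with a 95% interval from -0.64 to 0.88; under quantile normalisation it was -0.13. Nr3c1, the receptor itself, read 3.54 and 3.44 in LL, 3.79 and 3.08 in WL, 3.88 and 3.90 in LW, and 3.89 and 3.76 in WW. LL lay below LW and WW without overlap, by 0.40 and 0.34 (adjusted p = 0.317 and 0.396), and WL2 was the lowest. With both WL arrays left out, the adjusted p were 0.034 against LW and 0.0545 against WW. The second Nr3c1 probe read 3.14 and 2.89 in LL, 3.30 and 2.51 in WL, 3.25 and 3.22 in LW, and 3.18 and 3.31 in WW. Mice high in Fkbp5, Mt1 and Mt2 were thus the mice low in Nr3c1.

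**Figure D2:**
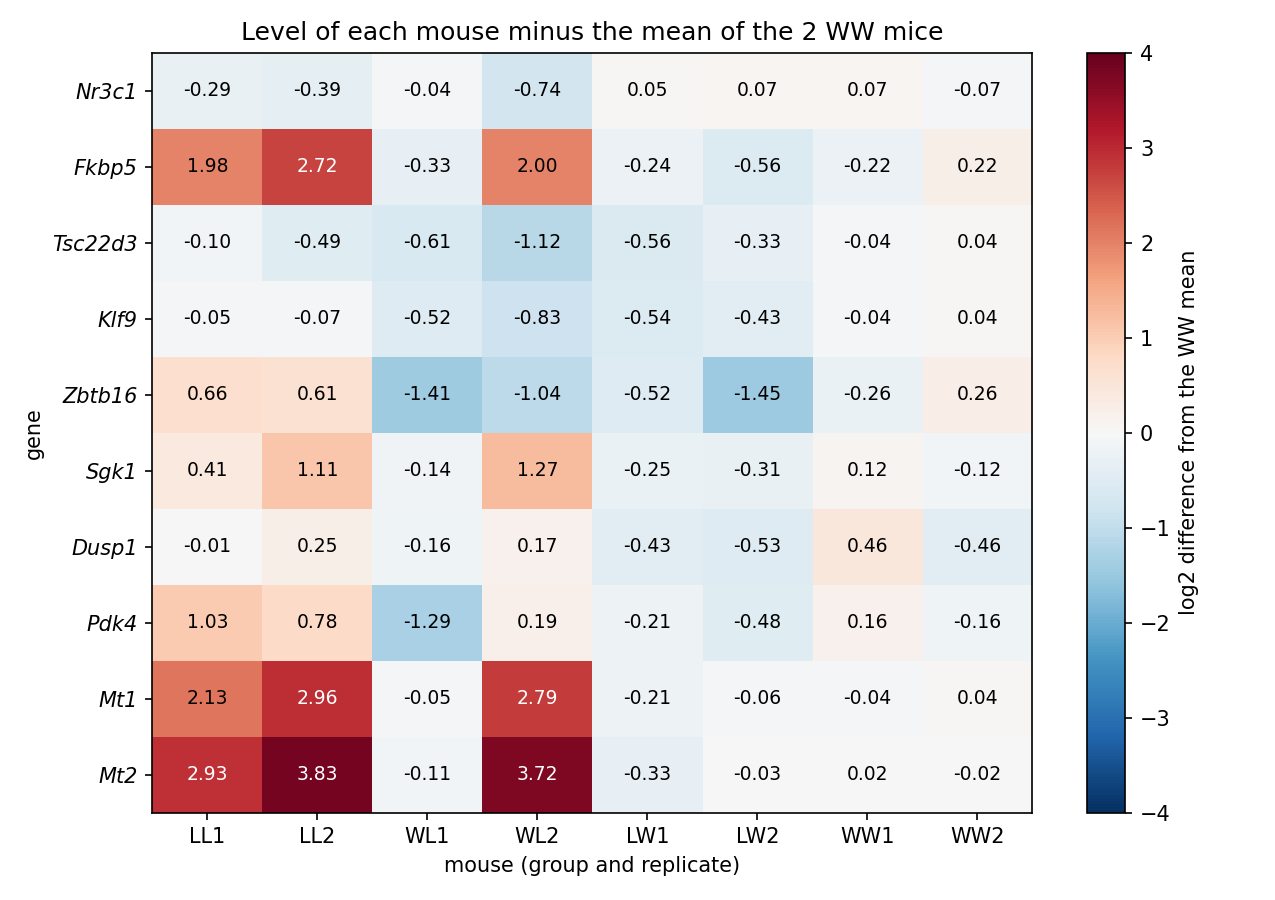
Level of each mouse minus the mean of the 2 WW mice (log2 difference, colour and number) for the 10 genes in rows and the 8 mice in columns. Mt2 reads 2.93, 3.83 and 3.72 in LL1, LL2 and WL2, whereas Klf9 reads -0.05 and -0.07 in LL and -0.52, -0.83, -0.54 and -0.43 in the WL and LW mice.

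Tested over all genes, none of the 10 passed an adjusted p of 0.05 in any of the 8 comparisons. For LL against WW 3.13% of all genes passed (1.21% higher and 1.92% lower). The share was 0.00387% for WL against WW, 0.0542% for LW against WW, 1.72% for LL against WL and 2.8% for LL against LW. It was 1.27% for recipient genotype averaged over donors, 0.317% for donor genotype averaged over recipients and 0.0619% for the interaction of donor and recipient. At an unadjusted limma p under 0.05, 3 of the 10 genes passed for LL against WW, against 24.8% of all genes, and 3 for WL against WW, against 8.18%. For the recipient term, Fkbp5 was higher in LysM-DTR recipients by 1.79 (adjusted p = 0.112), Mt1 by 2.02 (adjusted p = 0.117) and Mt2 by 2.68 (adjusted p = 0.117). Mouse WL1 did not share this: its Fkbp5, Mt1 and Mt2 levels were 0.33, 0.047 and 0.11 below the WW mean.

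Without both WL arrays the test passed far more genes. For LL against WW 32.1% of all genes passed (17.3% higher and 14.8% lower), and 4 of the 10 did, all higher: Fkbp5, Mt1, Mt2 and Pdk4. For LL against LW 32.8% of all genes and 8 of the 10 passed, with Zbtb16, Sgk1 and Klf9 also higher in LL and Nr3c1 lower. For LW against WW 0.00774% of all genes and none of the 10 passed. At an unadjusted limma p under 0.05, 3 of the 10 passed (Klf9, Zbtb16 and Tsc22d3), and the share of all genes was not taken for this fit. With all 8 arrays 2 of the 10 passed at that threshold for LW against WW, against 2.2% of all genes. The share of the 10 for LL against WW is thus close to that of all genes, and that for LL against LW is above it. These comparisons share the LL or WW mice.

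**Figure D3:**
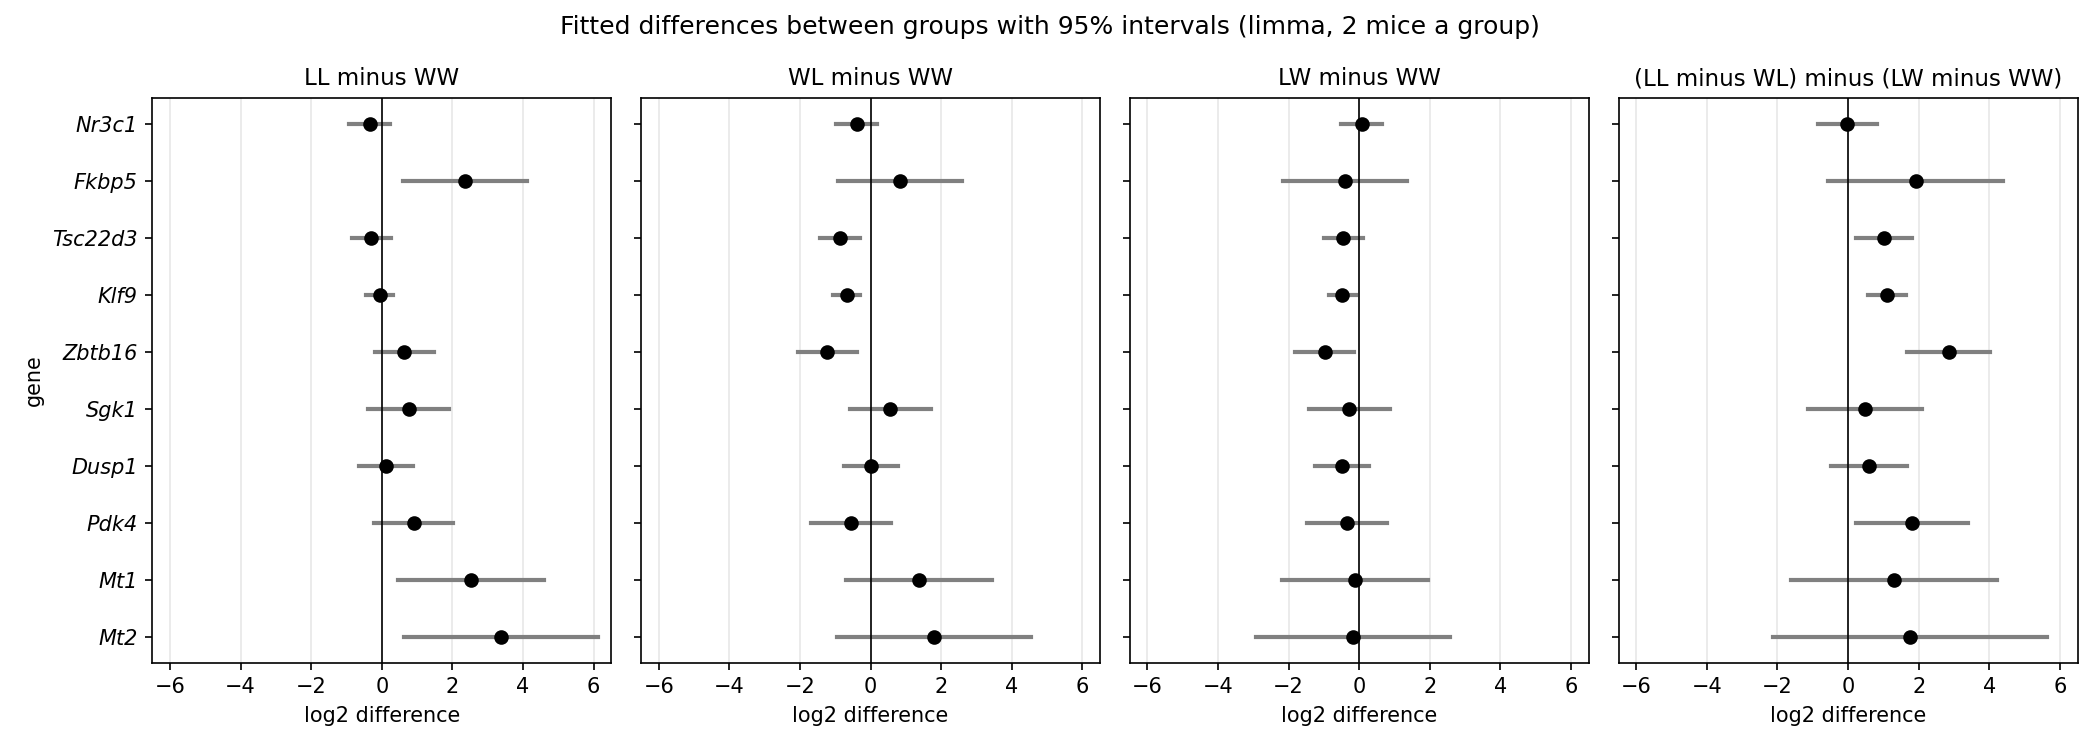
Fitted log2 difference (point) and 95% interval (bar) of each gene for LL minus WW, WL minus WW, LW minus WW and the interaction, from limma with 2 mice a group. Intervals are widest for Mt1 and Mt2, whose WL mice differ most, and the Klf9, Zbtb16, Tsc22d3 and Pdk4 intervals lie above 0 for the interaction.

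The same 8 arrays were also compared by counting mice, without a test. Both LL mice lay above both WW mice for 6 of the 10 genes, against 37% of all genes, and below them for 3 (Tsc22d3, Klf9 and Nr3c1), against 32.4%. Both WL mice lay below both WW mice for Tsc22d3, Zbtb16 and Klf9, against 24.5% of all genes. Both LW mice lay below both WW mice for 8 of the 10, all but Dusp1 and Nr3c1, against 20.1% of all genes, although the differences were small: their median over the 10 genes was -0.37, against -0.02 over all genes. The nearest LW and WW mice almost tied for Mt2 (4.711 and 4.717), Mt1 (5.599 and 5.621) and Fkbp5 (1.408 and 1.43).

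LysM-DTR marrow went with higher levels than wild-type marrow in LysM-DTR recipients and with lower levels in wild-type recipients for 4 genes: both LL mice lay above both WL mice and both LW mice below both WW mice for Tsc22d3, Zbtb16, Klf9 and Pdk4. Of all genes, 5.08% showed this pattern and 1.59% its reverse, which none of the 10 showed; the pattern was chosen after the values were seen. The interaction, the donor difference in LysM-DTR recipients minus that in wild-type recipients, was 2.85 for Zbtb16 (SE 0.49; adjusted p = 0.132), 1.1 for Klf9 (SE 0.22; adjusted p = 0.192), 1.80 for Pdk4 (SE 0.65; adjusted p = 0.476) and 1.02 for Tsc22d3 (SE 0.33; adjusted p = 0.400). Without mouse WL2 it was 3.03 for Zbtb16, 0.94 for Klf9 and 2.55 for Pdk4. Without WL1 it was 2.66, 1.25 and 1.06. At an unadjusted limma p under 0.05, these 4 passed, against 9.14% of all genes, and the median interaction over the 10 genes was 1.2, against 0.07 over all genes.

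**Figure D4:**
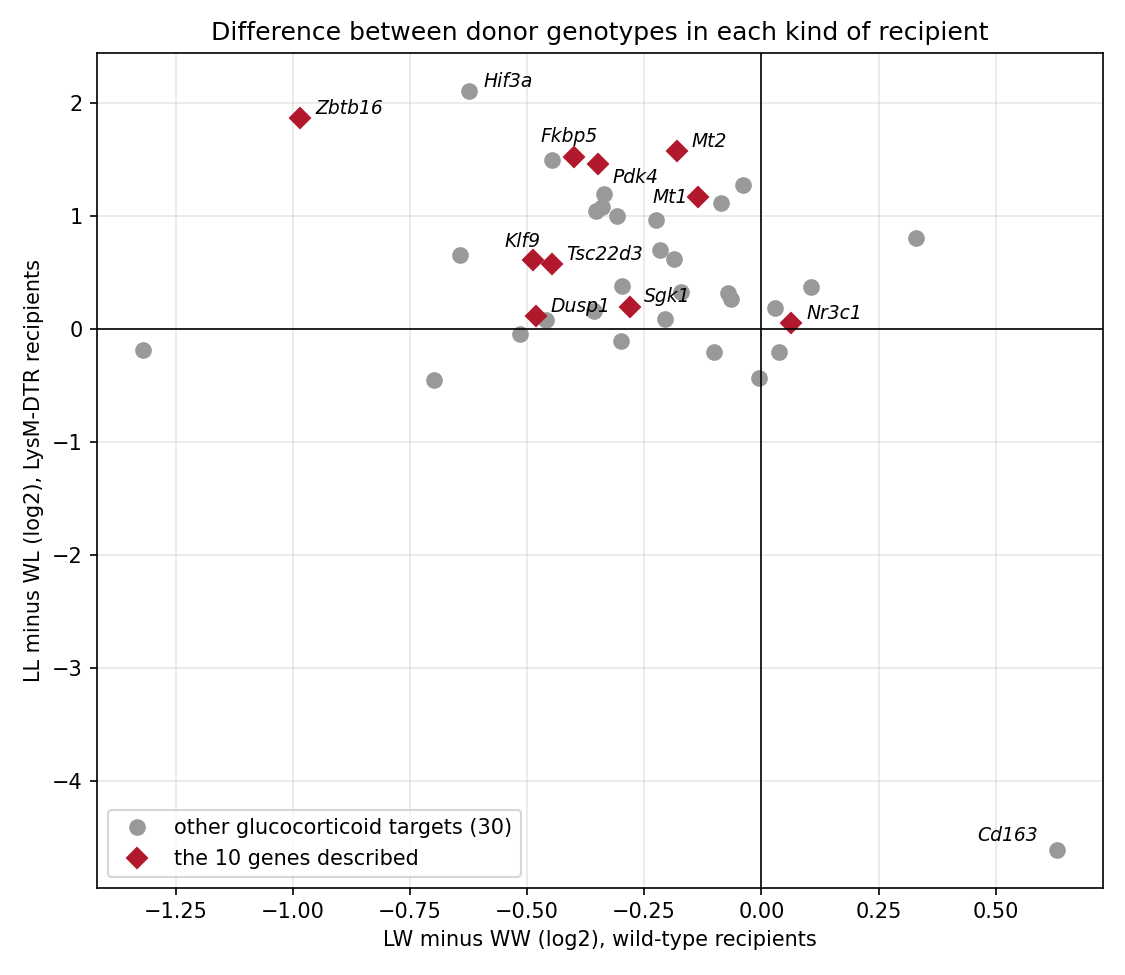
Difference between donor genotypes in wild-type recipients (LW minus WW, horizontal axis, log2) and in LysM-DTR recipients (LL minus WL, vertical axis, log2), for the 10 genes (red diamonds) and 30 other glucocorticoid targets (grey circles). The 2 axes use different mice; 9 of the 10 genes lie above 0 on the vertical axis and below 0 on the horizontal one, Nr3c1 lies at 0.06 and 0.05, and Cd163 is at the lower right.

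Among 30 other genes known as glucocorticoid targets, 10 showed the same pattern across the 4 groups, against 5.08% of all genes. They were Per1, Nfkbia, Klf15, Hif3a, Irs2, Glul, Cdkn1a, Scnn1a, Arrdc2 and Map3k6, named after their values were seen. The fitted interaction was above 0 for 26 of the 30, with a median of 0.52, against 0.07 over all genes. Hif3a, an inhibitory partner of the hypoxia factors, read 0.75 and 0.41 in LL, -2.11 and -0.93 in WL, -1.65 and -1.66 in LW, and -1.40 and -0.67 in WW (interaction 2.73, adjusted p = 0.217). Per1, a clock gene that the receptor also induces, read 5.49 and 5.02 in LL, 3.65 and 4.71 in WL, 3.69 and 4.13 in LW, and 4.22 and 4.29 in WW. Scnn1a, a subunit of the epithelial sodium channel, was 1.37 higher in LL than in LW (limma adjusted p = 0.0494). It lost this call when any LL, LW or WW array was left out. With the mean of its probes the difference was 0.78 (adjusted p = 0.0599). The call was also lost without the filter (adjusted p = 0.0899) and with the replicate block (adjusted p = 0.07005). Cd163, a scavenger receptor of macrophages, was the only target that passed for LL against WW or for the interaction, and it was lower in LL: it was not well above background in LL and at least 9.30-fold higher in WW (limma adjusted p = 0.0074; group means -6.21 and -1.93), with an interaction of -5.24 (adjusted p = 0.0433). The first call was lost without LL1, WW1 or WW2, and the second without any 1 LL, LW or WW array. The second was also lost under normexp background correction (-1.46, adjusted p = 0.121) and without the filter (adjusted p = 0.100). For LL against WW the list's median was 0.26, against 0.03 over all genes, and 1 of 30 passed, against 3.13%. Without both WL arrays 12 were higher and 3 lower, against 17.3% and 14.8% of all genes.

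Of 19 tested genes of receptor machinery (chaperones, hormone-converting enzymes and coregulators), 1 passed for LL against WW, against 3.13% of all genes. It was Abcb1a, an efflux pump that exports steroids, higher by 0.74 (SE 0.13, limma adjusted p = 0.0452). It read 1.03 and 1.11 in LL and between 0.25 and 0.47 in the other 6 mice, and the call was lost when any LL, LW or WW array was left out. With the mean of its probes the difference was 0.61 (adjusted p = 0.231). The call was also lost without the filter (adjusted p = 0.0963) and with the replicate block (0.0823). With the percentile taken over probes detected on all arrays, the adjusted p was 0.0536. The median of this list was -0.09, and without both WL arrays 4 were higher and 2 lower, against 17.3% and 14.8% of all genes.

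Of 29 tested genes of metal handling, none passed for LL against WW. Without both WL arrays 8 were higher and 3 lower, against 17.3% and 14.8% of all genes. The median of this list was 0.14. The 2 with the smallest p both lay lower in LL: the copper importer Slc31a1 by 0.74 (adjusted p = 0.0683, and 0.0167 without both WL arrays) and the zinc exporter Slc30a2 by 1.09 (adjusted p = 0.0861 and 0.0076). The zinc importer Slc39a14, named after its values were seen, was high in the same mice as the metallothioneins, at 1.75 and 3.09 in LL and 3.35 in WL2 against -0.34 to -0.06 in the other 5. Mtf1, which encodes the metal-sensing factor, read between 1.87 and 2.25 on all arrays. Mt3, the neuronal metallothionein, lay between -0.66 and -0.12 on all arrays and read -0.41 in WL2, where Mt1 and Mt2 were high.

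Of 14 genes of the interleukin 6 and STAT3 response, none passed for LL against WW, and the median was 1.36, the highest of the 6 lists. Saa3, an acute phase protein, read 6.20 and 8.21 in LL, 1.83 and 6.52 in WL, 3.05 and 2.78 in LW, and 1.25 and 1.02 in WW, a difference of 6.08 (adjusted p = 0.0853, and 0.0043 without both WL arrays). Il6st, the shared receptor subunit, was 0.72 higher in LL (adjusted p = 0.107 and 0.023). Il6 itself, named after its values were seen, read -0.31 and 1.40 in LL and 1.99 in WL2, against -4.51 to -2.90 in the other 5 mice. Without both WL arrays 7 genes of this list were higher and 2 lower, against 17.3% and 14.8% of all genes.

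Of 17 tested genes of fasting and fatty acid oxidation, the programme to which Pdk4 belongs, 1 passed, against 3.13% of all genes. Acadl, a mitochondrial acyl-CoA dehydrogenase, was 1.5 higher in LL than in WW (SE 0.16, limma adjusted p = 0.0144). This call was lost without any 1 LL or WW array. Acadl read 3.33 and 3.41 in LL, 2.90 and 3.18 in WL, and between 1.77 and 1.97 in LW and WW, so both WL mice lay nearer to LL for this gene. The list's median was 0.29, and without both WL arrays 7 were higher and 2 lower, against 17.3% and 14.8% of all genes. Of 32 paralogs of the 10 genes, none passed and the median was 0.30; the smallest p belonged to Dusp2, 1.70 lower in LL (adjusted p = 0.0557, and 0.0171 without both WL arrays), and Klf4, 0.94 higher (adjusted p = 0.083 and 0.0306). Without both WL arrays 12 paralogs were higher and 3 lower, against the same shares of all genes (17.3% and 14.8%).

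Some lists of cell markers moved with the patterns of the 10 genes, and others did not. The mean of 8 alveolar type 2 markers was 1.82, 1.69 and 1.84 below the WW mean in LL1, LL2 and WL2, the mice high in Mt1, Mt2 and Fkbp5, and within 0.16 of it in the other 5. Their summed level ran from 9.02 to 9.26 in LL, 8.89 and 10.3 in WL, 10.3 to 10.5 in LW and 10.4 to 10.5 in WW, and none was at background in any group. None of these 8 passed for LL against WW, and 7 were lower without both WL arrays, against 14.8% of all genes. Lymphocyte markers (8) and club and ciliated markers (6) were low in the same 3 mice: their means were 2.19, 2.43 and 1.63, and 0.84, 0.87 and 1.1, below the WW mean in LL1, LL2 and WL2. In the other mice they lay between -0.19 and 0.43 and between -0.07 and 0.07. Summed lymphocyte levels were 2.27 and 2.27 in LL, 4.18 and 2.33 in WL, 4.01 and 4.51 in LW and 3.91 and 4.20 in WW, and those of club and ciliated markers 9.93 and 9.94, 10.4 and 9.42, 10.4 and 10.5, and 10.4 and 10.6. For LL against WW 1 of 8 lymphocyte markers and none of the 6 club and ciliated markers passed, against 3.13% of all genes. Of 10 monocyte and macrophage markers, 9 were low in LL alone and fell against WW, against 1.92% of all genes. The means of the list were 4.03 and 3.79 below WW in LL and 0.46 and 0.72 above in WL, and 1 of the 10 was at background in LL. The exception was Ly6c2, which read 8.08 and 8.39 in LL and 7.77 in WL2, against 6.72 to 6.99 in the other 5 mice. It was 1.29 higher in LL than in WW (limma adjusted p = 0.0859) and was the 1 marker of the list that was higher without both WL arrays. Ly6c2 dominates the list's summed level of 8.15 and 8.44 in LL, 7.40 and 8.09 in WL, 7.28 and 7.15 in LW and 7.42 and 7.36 in WW. Platelet markers and alveolar macrophage markers were also low in LL: 6 of 6 and 4 of 8 fell, against 1.92% of all genes. Platelet means were 4.50 and 5.06 below WW in LL and 0.62 and 0.15 below in WL, and alveolar macrophage means 2.96 and 2.13 below in LL. Their summed levels were -0.07 and -0.43 in LL, 3.59 and 4.34 in WL, 3.96 and 3.18 in LW and 3.85 and 4.37 in WW for platelets, and 3.92 and 5.69, 6.96 and 6.92, 6.82 and 6.25, and 6.59 and 6.82 for alveolar macrophages. In LL 2 of the former and 1 of the latter were at background. Mesothelial markers were high in LL, with means 1.45 and 1.05 above WW and 1 of 4 passing as higher, against 1.21% of all genes. For the opposite donor difference, 3 of 8 alveolar type 1 markers showed the pattern, against 5.08% of all genes. The interaction was above 0 for 8 of 8, with a median of 1.06, against 0.07 over all genes. The mean of these markers was 0.57 and 0.40 above WW in LL and 0.19 and 0.82 below in WL. Their summed level was 9.62 and 9.58 in LL, 8.88 and 8.77 in WL, 8.97 and 8.93 in LW and 9.13 and 9.07 in WW. The mean of 8 endothelial markers lay within 0.14 of WW on every array, but single markers differed in both directions in LL against WW, from -0.90 for Kdr to 0.94 for Vwf, with none passing. The mean of 8 neutrophil markers followed neither pattern and was higher in replicate 2 of every group, but single markers differed. Ly6g read 3.19 and 3.47 in LL and 3.07 in WL2, against 1.61 to 1.96 in the other 5 mice. Cxcr2 went the other way in LL, 3.30 below WW (limma adjusted p = 0.0799). Relative to WW the means of the neutrophil list were -1.05 and 0.11 in LL, -1.17 and 0.46 in WL, and -0.80 and 0.01 in LW. Those of 8 fibroblast markers were 0.445 and 0.40 in LL, 0.335 and 0.28 in WL, and 0.11 and 0.20 in LW. Those of 6 smooth muscle and pericyte markers lay between -0.33 and 0.21. No neutrophil or fibroblast marker passed for LL against WW. The part of these cell types in the levels of the 10 genes was not tested.

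Among 15218 genes with a RefSeq symbol, the closest to the 3 genes of largest moderated F were found by the root mean square difference of the mean-centred levels over the 8 arrays. Closest to Fkbp5, whose own range was 3.27, was Gadd45g, a stress-induced growth arrest gene, at 0.18, followed by Foxn4 at 0.22 and Klhdc8a at 0.23. Gadd45g read 5.49 and 5.85 in LL, 3.20 and 5.48 in WL, 3.29 and 2.68 in LW, and 3.42 and 3.91 in WW. Closest to Klf9, over a range of 0.87, were Casq2 at 0.098, Atp2a2 at 0.098 and Zfp957 at 0.10; Casq2 and Atp2a2 encode a calcium store protein and a calcium pump of muscle. Closest to Zbtb16, over a range of 2.11, were Slc22a22 at 0.30 (above background on 3 arrays), Rgcc at 0.37 and Zfp85 at 0.39. Rgcc, a cell cycle regulator, read 6.37 and 6.32 in LL, 4.47 and 4.89 in WL, 4.64 and 4.80 in LW, and 5.29 and 5.32 in WW.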

How the data were processed

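Total RNA of 8 lungs was labelled with Cy3 and hybridised to 8 arrays on 1 slide. The deposited array files hold intensity values from Agilent Feature Extraction 11.5.1.1 (per the submitters' processing notes and the file headers), with background subtracted and arrays not scaled to one another. Values in the deposited series table are log2 and equal the log2 processed intensity minus a constant per array within 0.05 for at least 99.99% of probes, with the 75th percentile near 0. Positions are those of the array annotation (mm9), which gives no exon or UTR, and RefSeq sequences are on GRCm38.p6; nothing was converted.

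From 59305 non-control spots an array (0 to 4 non-uniform ones left out), spots were averaged to 56605 probes, taken to log2 and centred on each array's 75th percentile (an intensity of 208.6 to 324.4). On each array 66.3% to 72.3% of spots were well above background and none was saturated; the number of arrays limits the precision. Probes well above background on both arrays of a group were kept (39603), with the brightest probe for each gene. A model of 4 group means was fitted with limma 3.58.1 (R 4.3.3; 4 residual and 2.19 prior degrees of freedom; two-sided; Benjamini-Hochberg over 25830 genes within each of 8 comparisons). The labels give 2 mice a group. Over all genes, the differences between replicates 2 and 1 correlated between groups at r from -0.097 to 0.19, so replicate number was not used as a block. The mean of the neutrophil markers was nevertheless higher in replicate 2 of every group. The fit was run on simulated data with equal spread in all 4 groups, so that check did not cover the wider spread of the WL mice. Figures were drawn with Python 3.11.15.

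The 10 genes, the lists and the tests were chosen with earlier results of these data known. Named are all 10 genes, up to 4 passing genes of each list (or the 2 of smallest p), the 3 genes closest in profile, and others said to be named after their values were seen. Alternatives were other background corrections, normalisations, filters, probe rules and variance models, the replicate block, the compared arrays alone, and leaving out arrays.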

Additional observations from a re-analysis of the deposited data

Results flagged for a closer look

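For 4 of the 10 genes the difference between donor genotypes had opposite signs in the 2 kinds of recipient, with every mouse on the same side. The interaction was 2.85 for Zbtb16 (LL minus WL 1.86, LW minus WW -0.98; limma adjusted p = 0.132), 1.1 for Klf9 (0.61 and -0.49; adjusted p = 0.192), 1.80 for Pdk4 (1.46 and -0.35; adjusted p = 0.476) and 1.02 for Tsc22d3 (0.57 and -0.45; adjusted p = 0.400). None passed the adjustment over all genes with all 8 arrays. The Pdk4 value moved most with 1 array: it was 2.55 without WL2 and 1.06 without WL1. The interaction without WL2 was 3.03 for Zbtb16 and 0.94 for Klf9, and without WL1 it was 1.25 for Klf9. Groups of 2 mice were too small for a test of single outlying mice.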

How the results depend on the processing

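Of 637 values of 33 single-gene results under other settings, 579 kept their direction and side of the threshold, 52 passed it newly and 6 reversed. Dusp1 for LL against WW was -0.13 under quantile normalisation. Leaving out 1 array in turn, which assumes that the lone mouse of its group varies like the others, the same difference ran from -0.34 to 0.58, and WL against WW ran from -0.047 to 2.79 for Mt1, -0.11 to 3.72 for Mt2 and -0.33 to 2.0 for Fkbp5. The number of the 10 genes that passed then ran from 0 to 4 for LL against WW, 0 to 7 for WL against WW, 0 to 5 for LL against WL, 0 to 8 for LL against LW, 0 to 7 for the recipient term, 0 to 3 for the donor term and 0 to 6 for the interaction. The highest counts came without a WL array, when 32.1%, 37.7%, 19.7%, 32.8%, 48.4%, 8.45% and 8.55% of all genes passed, in that order. Taking the mean of a gene's probes, 1 passed for LL against WL and 1 for LL against LW, both times Zbtb16, against 1.65% and 2.85% of all genes. Without both WL arrays 4 passed for LL against WW and 8 for LL against LW, against 32.1% and 32.8% of all genes, and with only the compared arrays 4 and 7, against 24.2% and 27.6%. With the replicate block, 0 of the 10 passed in every comparison, and 447 of all genes passed for LL against WW in place of 808. Over all genes, 600 passed for that comparison under normexp, 400 without the filter and 8285 without both WL arrays. With 2 mice a group, 1 array can change a call: 4 genes of all passed without LL1 or WW1.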
